A study of Drosophila melanogaster with 3 samples.

Results

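Zen summits at divergent protein-coding promoters were examined, that is, at places where the transcript starts of genes on opposite strands lie close together. The summits came from the authors' reproducible peak set, kept by the irreproducible discovery rate (IDR), on arms 2L, 2R, 3L, 3R, 4 and X of the *Drosophila melanogaster* genome (dm6). A summit was counted as divergent when it lay within 500 bp of annotated transcript starts of at least 2 protein-coding genes on opposite strands. Of 7405 IDR summits, 1151 met this rule, or 15.5%. A further 2092 summits (28.3%) lay within 500 bp of protein-coding starts but had them on 1 strand only, and are called single-strand promoter summits. The remaining 4162 had no protein-coding start within that distance. The rule used position and annotation, and no signal value.

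The data are chromatin immunoprecipitation and sequencing (ChIP-seq) of a transgenic fly line that stably expresses *zen* with GFP fused to its C terminus, precipitated with an antibody against GFP. The chromatin came from mixed-sex embryos, taken whole at 0 to 4 h of age, so signal from cells that express Zen and from cells that do not cannot be told apart. The 3 libraries are biological replicates of a single group. A library from flies that lack the tagged protein was not analysed here. Every list was called against the same control alignments. Library depth is unknown, since the lists carry no reads. They give a signal value per peak, used here only to rank summits within a list, with rank 1 the strongest. For comparisons across libraries, the 7405 strongest summits of each library's own list were used, and differences were tested with an exact two-sided sign-flip test over the 3 libraries. That test cannot give a p under 0.25, so no difference below could pass a threshold of 0.05, and each is read against its spread over libraries. The IDR set was derived from these same libraries and is not independent of them.

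Zen is a homeodomain transcription factor that acts in dorsal cells of the early embryo and is needed there for the amnioserosa, an extraembryonic tissue. Homeodomains commonly bind short AT-rich sites with a TAAT core. Divergent promoters are frequent in the compact fly genome, where pairs of broadly expressed genes often lie head to head and share a short upstream region. Several fly proteins are known for binding such regions: BEAF-32 recognises CGATA, DREF recognises TATCGATA, and M1BP recognises the core promoter element Motif 1, whose centre is GGTCACAC. Zelda, which opens chromatin in the early embryo, binds CAGGTA, and GAGA factor binds GAGAG.

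The following 201-base windows, each a summit with 100 bases on either side read 5′ to 3′ on the plus strand from the RefSeq dm6 genome, show what these sites look like. Capitals mark the homeodomain word TAATTA, the BEAF-32 word CGATA, the DREF word TATCGATA, or the Motif 1 word GGTCACAC, in either orientation. The first 4 are the strongest divergent summits, followed by the strongest with TATCGATA, the strongest with GGTCACAC and a site at a chromatin gene with none of these motifs.
Art3/mRpS10, chr3R:15229436-15229636, plus strand: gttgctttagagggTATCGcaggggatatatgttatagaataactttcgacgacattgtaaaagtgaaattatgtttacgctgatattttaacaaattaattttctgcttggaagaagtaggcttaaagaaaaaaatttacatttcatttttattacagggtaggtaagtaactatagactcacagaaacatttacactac
Tcs5/CHMP2B, chr3L:5139413-5139613, plus strand: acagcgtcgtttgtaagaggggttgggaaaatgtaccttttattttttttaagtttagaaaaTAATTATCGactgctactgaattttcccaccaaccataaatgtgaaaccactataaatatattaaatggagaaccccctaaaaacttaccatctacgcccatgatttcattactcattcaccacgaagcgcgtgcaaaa
CG5611/Mtl, chr3R:27636069-27636269, plus strand: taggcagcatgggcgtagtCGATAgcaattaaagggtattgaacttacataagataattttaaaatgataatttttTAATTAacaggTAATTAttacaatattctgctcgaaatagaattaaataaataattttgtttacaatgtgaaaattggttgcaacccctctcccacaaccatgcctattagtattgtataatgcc
Chro/Ssl1, chr3L:22878797-22878997, plus strand: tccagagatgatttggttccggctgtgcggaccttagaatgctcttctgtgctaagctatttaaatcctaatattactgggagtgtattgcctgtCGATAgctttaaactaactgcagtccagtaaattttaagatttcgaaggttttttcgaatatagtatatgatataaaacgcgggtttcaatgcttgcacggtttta
Atat/Shc, chr3L:9426788-9426988, plus strand: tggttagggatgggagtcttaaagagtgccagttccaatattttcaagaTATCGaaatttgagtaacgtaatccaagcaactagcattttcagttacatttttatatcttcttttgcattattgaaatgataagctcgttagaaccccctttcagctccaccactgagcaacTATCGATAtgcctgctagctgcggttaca
Ripalpha/RpL7, chr2L:10200938-10201138, plus strand: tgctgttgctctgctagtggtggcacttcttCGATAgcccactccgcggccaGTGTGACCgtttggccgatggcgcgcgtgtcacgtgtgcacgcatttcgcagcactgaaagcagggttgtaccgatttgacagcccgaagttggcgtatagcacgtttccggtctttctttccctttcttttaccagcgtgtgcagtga
E(z)/Cnep1r2, chr3L:10637961-10638161, plus strand: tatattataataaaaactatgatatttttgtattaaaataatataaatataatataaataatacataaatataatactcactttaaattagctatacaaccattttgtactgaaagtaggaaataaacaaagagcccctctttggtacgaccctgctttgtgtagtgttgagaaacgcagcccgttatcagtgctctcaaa

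The windows differ in what they hold. The summit between *Art3*, an arginine methyltransferase gene, and *mRpS10*, which encodes a protein of the small mitochondrial ribosomal subunit, was at rank 3 of all IDR summits, at ranks 6, 7 and 2 in replicates 1, 2 and 3, and its window holds a single match to the motifs, a CGATA that begins 86 bases left of the summit. In the window between *Tcs5* and *CHMP2B*, an ESCRT-III subunit gene, TAATTA and CGATA overlap. The window of *CG5611* and *Mtl* has TAATTA at 24 and at 13 bases left of the summit. In the window of *Chro*, whose product is the interband protein Chromator, and *Ssl1*, which encodes a TFIIH subunit, a CGATA begins 5 bases left of the summit. The summit at *Ripalpha* and *RpL7* (rank 463, and 841, 389 and 383 in replicates 1, 2 and 3) stood in a window of 55.7% GC, against 27.4% GC in the window at *E(z)*, the Polycomb histone methyltransferase gene, which was at rank 212 and at 253, 293 and 153 in the replicates.

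Most divergent summits lay between the starts of the 2 genes. Of the 1151 divergent summits, 1145 lay at genes arranged head to head, with the minus-strand start to the left of the plus-strand start or at the same base, and in 6 no closest pair of starts had this order. The closest head-to-head starts were a median of 267 bp apart, with quartiles of 141 and 365 bp. The summit lay between them in 903 cases (78.5%), and in 478 of those 903 (52.9%) it was within 50 bp of the midpoint. The nearest minus-strand start was a median of 128 bp away and the nearest plus-strand start 122 bp. The nearer of the 2 starts was a median of 81 bp away (quartiles 42 and 120 bp) and the farther 192 bp (quartiles 131 and 281 bp). The rule bounds both distances at 500 bp. The nearer start was within 50 bp in 30.8% of cases, within 100 bp in 62.3% and within 200 bp in 95.5%.

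**Figure D1:**
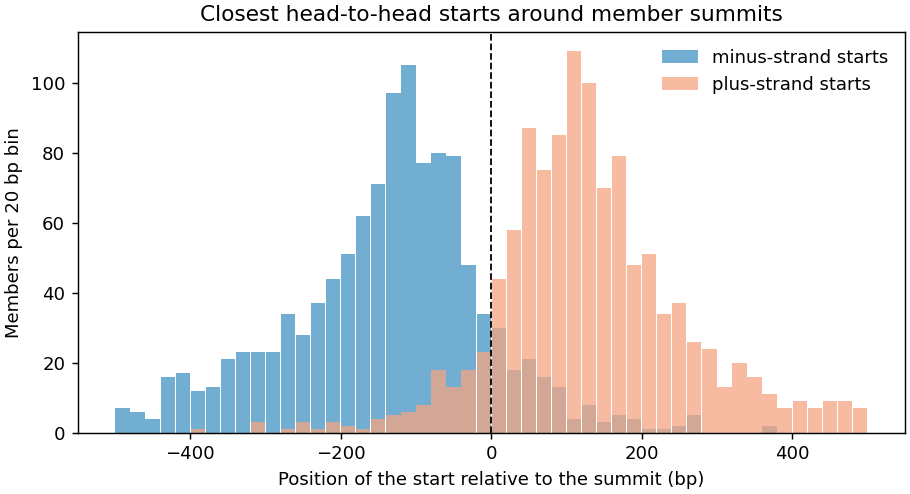
Positions of the closest head-to-head starts around the summits of divergent promoters, with distance from the summit in bp on the x axis and the number of divergent summits per 20 bp bin on the y axis, for minus-strand and plus-strand starts. Minus-strand starts peak to the left of the summit, with 105 in the bin from 120 to 100 bp, and plus-strand starts to the right, with 109 in the bin from 100 to 120 bp.

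Most divergent summits, 826 of 1151 (71.8%), lay outside any protein-coding gene, against 1143 of 2092 single-strand promoter summits (54.6%). A summit between head-to-head starts is upstream of both, so this contrast follows in part from how the kinds are defined. Another 220 (19.1%) were in exons outside coding sequence, against 414 (19.8%) at single-strand promoters. Introns held 96 divergent summits (8.34%), against 507 single-strand ones (24.2%), and coding sequence held 9 (0.782%), against 28 (1.34%). Starts of noncoding genes were within 500 bp of 20 divergent summits (1.74%) and of 6.17% of single-strand promoter summits. Divergent summits also seldom shared a peak interval: 8 (0.695%) were in an interval listed with several summits, against 2.29% of single-strand promoter summits and 6.10% of summits without a start. The 1151 summits lay in 1147 intervals with a median width of 416 bp, and 61.7% of the summits were in an interval of exactly that width.

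Head-to-head pairs were occupied more often than other genes. The annotation holds 2667 pairs of protein-coding genes whose starts are head to head within 1000 bp, and 1165 of them had an IDR summit within 500 bp of starts of both genes (43.7%). Of the 8893 protein-coding genes outside such pairs, 1579 had an IDR summit within 500 bp of a start (17.8%). In replicates 1, 2 and 3, 43.1%, 41.8% and 43.8% of the pairs were occupied, a mean of 42.9% ± 1.02 (SD, n = 3), against 16.8%, 16.5% and 17.8% of the other genes, a mean of 17.1% ± 0.674. The libraries' ranges did not overlap, and the mean difference was 25.9 ± 0.501 percentage points (exact sign-flip p = 0.25, the smallest that 3 libraries allow, with the pairs higher in 3 of 3). A pair has starts on both strands while a gene outside pairs may have a single start, and the measure for pairs asks for closeness to both. The divergent summits reached 2229 distinct protein-coding genes, or 16.0% of 13945. Among the occupied pairs, 78 had more than 1 summit, and none had more than 3.

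Occupancy varied with the distance between the starts. Pairs 200 to 299 bp apart were occupied in 342 of 544 cases (62.9%; 60.4% ± 2.79 over the libraries), and pairs 300 to 399 bp apart in 242 of 399 (60.7%; 58.4% ± 2.30). Pairs with starts 150 to 199 bp apart were occupied in 63 of 143 cases (44.1%; 41.7% ± 4.22), and those under 50 bp apart in 73 of 177 (41.2%; 43.3% ± 2.79). In each library the share was higher at 200 to 299 bp than at 150 to 199 bp, with 63.4%, 57.9% and 59.9% against 41.3%, 37.8% and 46.2% in replicates 1, 2 and 3. Between 50 and 99 bp the share was 55.0% (53.0% ± 1.74 over the libraries). It was 43.1% at 400 to 499 bp and 22.9% at 500 to 699 bp. For a given pair of starts, the stretch within 500 bp of both shrinks by construction at every step in gap, to almost none at 1000 bp. All of these shares carry that effect.

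**Figure D2:**
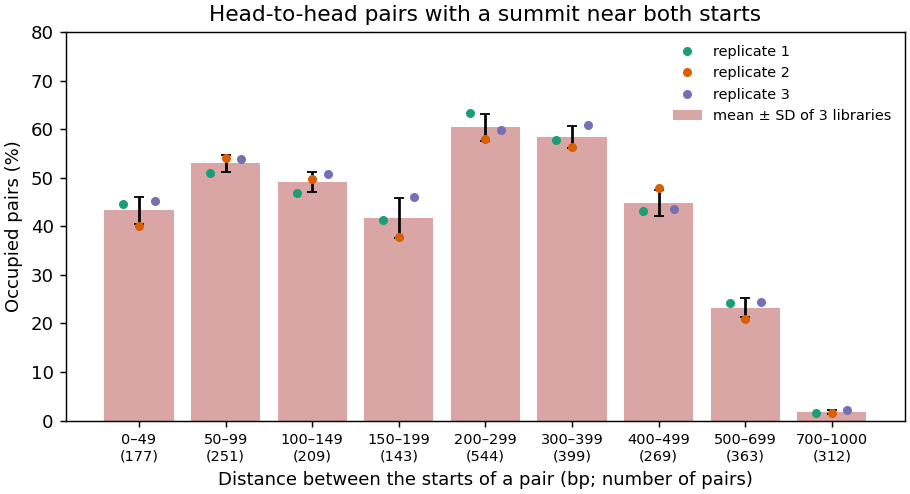
Share of head-to-head pairs with a summit within 500 bp of starts of both genes (y axis, percent) by the distance between the starts (x axis, bp, with the number of pairs), as the mean of 3 libraries with SD bars and as a point per library. The bars at 200 to 299 bp and 300 to 399 bp stand at 60.4% and 58.4%, and the bar at 150 to 199 bp at 41.7%.

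The spacing also went with where the summit sat. At the 203 divergent summits with starts under 100 bp apart, the summit lay between the starts in 30.5% of cases, with the nearer start a median of 37 bp away. At the 338 with starts 200 to 299 bp apart it lay between them in 91.7%, with the nearer start a median of 88 bp away, and at the 238 with starts 300 to 399 bp apart in 92.9%, with the nearer start at 105 bp. As the gap widens, the stretch between the starts fills more of the stretch within 500 bp of both. A summit between the starts can then also lie farther from the nearer one. These shares and distances carry that effect by construction. Median ranks of the summits were 2883.5 at 200 to 299 bp, against 3646 under 100 bp. The same order held in replicates 1, 2 and 3, with 3104, 3162 and 2606 against 3655.5, 3656 and 3304. Median GC content in the window was 32.8% at 200 to 299 bp, against 38.8% under 100 bp. The E-box CAGCTG, also a core promoter motif, was in 22.2% of windows with starts under 100 bp apart, against 7.01% with starts 400 bp or more apart. CTGCAG, its bases in another order, was in 6.90% against 2.80%. TATAAA ran the other way, in 28.6% against 50.5%, and so did AATAAT, its bases in another order, in 34.0% against 48.6%. Median GC content was 32.8% with starts 400 bp or more apart, and its part in these shares was not tested.

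Pairs on the X chromosome were occupied less often than pairs on the large autosome arms, 142 of 403 (35.2%) against 1020 of 2253 (45.3%). The difference was -10.0 percentage points in the IDR set and -8.70, -13.4 and -10.8 in replicates 1, 2 and 3, a mean of -11.0 ± 2.34 (exact sign-flip p = 0.25, lower on X in 3 of 3). Among the autosome arms the share was lowest on 2R, with 41.8% (40.1% ± 2.05 over the libraries), and highest on 3R, with 50.2% (50.3% ± 1.57). The small chromosome 4 has 11 such pairs, 3 of them occupied.

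The sequence between the starts differed between occupied pairs and pairs without a summit. In 310 of the 2667 pairs (11.6%) no IDR summit and no summit of any library's full list, which holds 29999 summits on these arms, lay within 500 bp of a start of either gene. In windows of 201 bp at the midpoint of the pair, chosen without reference to a summit, median GC content was 31.8% at occupied pairs and 37.8% at pairs without a summit. CGATA was present in 47.0% of occupied pairs and 30.0% of those without, TATCGATA in 12.0% and 1.29%, and GGTCACAC in 6.70% and 1.29%. TAATTA was present in 25.7% of occupied pairs and 16.1% of those without, and its control TAAATT, with a larger difference in points, in 49.5% and 36.5%. GAGAG ran the other way, with 13.0% and 21.0%, as did TACGA, the bases of CGATA in another order, with 19.5% and 31.0%. When pairs were sorted by each library's own strongest and full lists, TATCGATA was in 11.3%, 11.6% and 11.6% of the occupied pairs in replicates 1, 2 and 3, against 2.85%, 2.63% and 4.40% of the pairs without a summit in that library. The starts were a median of 261 bp apart at occupied pairs and 293.5 bp at those without. Base composition moved with occupancy, and its part in the motif differences was not tested.

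Divergent summits ranked above single-strand promoter summits. Their median rank in the IDR set was 3443 (quartiles 1684.5 and 5202.5), against 4041.5 at single-strand promoters (quartiles 2149.75 and 5788.5) and 3590.5 at summits with no protein-coding start. In replicates 1, 2 and 3 the medians were 3445, 3503.5 and 3237 at divergent promoters, against 4021.5, 3952 and 3838.5 at single-strand ones. The difference averaged -542 ± 82.1 ranks, with divergent summits stronger in 3 of 3 libraries (exact sign-flip p = 0.25). The quartile ranges overlap widely, so this is a difference of medians and does not separate single summits. Of the strongest 100 IDR summits 16 were divergent, of the strongest 300 there were 55 (18.3%), and of the strongest 1000 there were 159 (15.9%). Among all IDR summits the share was 15.5%, so those of the strongest 100 and 1000 were near it. Of the weakest 1000 there were 116 (11.6%).

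The libraries differed at the top of their lists. When each list was divided by rank into 10 equal groups, divergent summits made up, in the strongest group, 13.9% in replicate 1, 14.4% in replicate 2 and 19.6% in replicate 3, and in the weakest group 11.9%, 12.0% and 10.5%. In all, they made up 15.4%, 15.2% and 15.4% of the 7405 strongest summits, a mean of 15.3% ± 0.131. Of the 1151 divergent IDR summits, 87.3%, 82.3% and 85.1% had a counterpart within 100 bp among the strongest 7405 of replicates 1, 2 and 3, against 83.0%, 77.5% and 82.0% of single-strand promoter summits. In the full library lists the kinds of summit were alike. There 96.6%, 96.1% and 95.3% of the divergent summits had one, against 96.7%, 94.9% and 95.8% of single-strand promoter summits and 97.0%, 95.7% and 94.4% of the others.

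**Figure D3:**
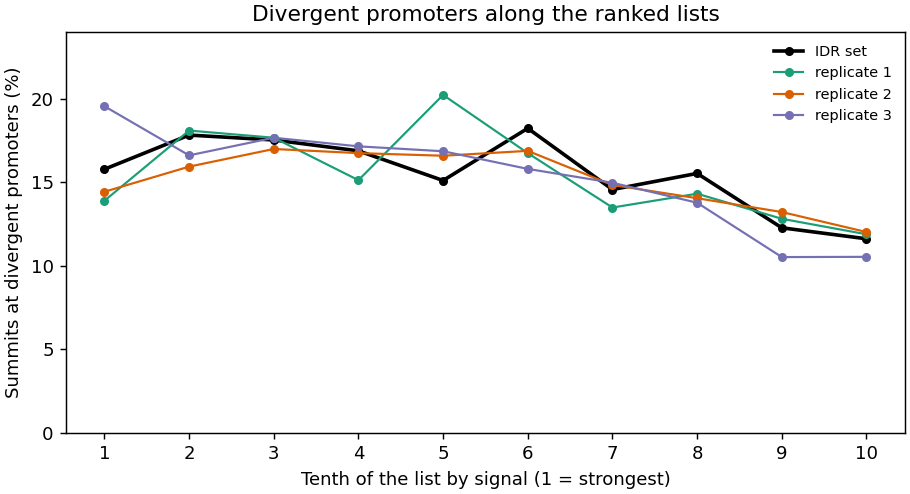
Share of summits at divergent promoters (y axis, percent) in each of 10 equal groups of a list ranked by signal (x axis, 1 is the strongest), for the IDR set and for the 7405 strongest summits of each library. Replicate 3 starts at 19.6% in the strongest group, against 13.9% in replicate 1 and 14.4% in replicate 2, and every line ends between 10.5% and 12.0% in the weakest group.

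The order of summits in replicate 3 also differed in a paired view. For the 1024 divergent summits with a counterpart in all 3 full lists, the log2 rank in replicate 3 minus the mean log2 rank in replicates 1 and 2 had a median of -0.32, and 677 (66.1%) ranked higher in replicate 3. The same median was -0.26 for 1848 single-strand promoter summits, of which 61.9% ranked higher, and -0.02 for 3670 summits without a start, of which 50.4% did. As this compares 1 library with the other 2, it has no replicate of its own. The largest shifts upwards in replicate 3 were at *Atat*, an alpha-tubulin acetyltransferase gene, and *Shc*, an adaptor of receptor tyrosine kinases, with rank 36 in replicate 3 against 176 and 393 in replicates 1 and 2, and at *CG8188* and *par-6*, a cell polarity gene, with rank 1272 against 6295 and 13219. The others were *Trmt6* with *Ent2*, *Wdr24* with *IntS11* and *Mnat9* with *CG1792*. The largest shifts downwards were at *wmd* and *levy*, which encodes a cytochrome c oxidase subunit, with rank 26971 in replicate 3 against 2252 and 6859 in replicates 1 and 2, and at *Magi* and *CG9406*, with rank 486 against 87 and 78. *CG9008* with *p38b*, *mRpS21* with *Droj2* and *CG45100* with *Hcs* followed. At *wmd* with *levy* and at *CG45100* with *Hcs*, another divergent IDR summit lay close by and ranked far higher in replicate 3 than the summit named here. The shifts at these pairs therefore describe a called summit position and not the promoter as a whole. All were chosen for this contrast, so their shifts are a description.

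The strongest 15 divergent summits lay beside genes of many cellular functions, and none of these genes belongs to the embryonic patterning list used below. Only 9 of the 5052 head-to-head genes are on that list, so their absence here carries little weight. After the sites already described came *CG11309* with *CG7632* at rank 28, and *mRpS23*, a mitochondrial ribosomal protein gene, with *CenG1A*, an ArfGAP gene, at rank 30. *CG13390* with *CG17294* was at rank 45, and *Lon*, a mitochondrial protease gene, with *PIG-F*, of the GPI anchor pathway, at rank 63. *Pdrg1* with *Pal1* was at rank 66, *eIF4EHP*, a cap-binding translational repressor gene, with *CG18428* at rank 70, and *mRpL23* with *CG9004* at rank 74. *Mkk4*, a kinase of the JNK pathway, with *SLIRP2* was at rank 80, *Reps* with *l(2)gd1* at rank 84, *Pex11ab*, a peroxisomal gene, with *CG8320* at rank 94, and *Atat* with *Shc* at rank 96. All 15 ranked higher in replicate 3 than by the mean log2 rank in replicates 1 and 2, with log2 differences between -0.46 at *CG11309* with *CG7632* and -2.87 at *Atat* with *Shc*. The gap between the starts was under 50 bp at *CG11309* with *CG7632* (39 bp), *mRpL23* with *CG9004* (24 bp) and *Pex11ab* with *CG8320* (33 bp), and was widest at *mRpS23* with *CenG1A* (492 bp).

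Short sequence motifs were sought in both orientations up to 100 bp from each summit, and each but CATCNCTA was set beside a control word with its bases in another order. CGATA was present at 610 divergent summits (53.0%), against 39.8% of single-strand promoter summits and 20.8% of summits without a start. In replicates 1, 2 and 3 it was at 50.2%, 50.7% and 52.6% of divergent summits, against 38.7%, 38.8% and 41.5% of single-strand ones, a mean difference of 11.5 ± 0.413 percentage points. The control TACGA was at 20.2% of divergent summits, 20.8% of single-strand promoter summits and 18.8% of the others, a mean library difference of -0.253 ± 0.847 points between divergent and single-strand promoters. TATCGATA, which contains CGATA on both strands, was at 15.6%, against 9.08% and 0.432%, with a mean library difference of 5.87 ± 0.642 points, and its control ATACGTAT was at 0.348%, 0.239% and 0.553%. At all 13945 protein-coding genes, in windows of the same length at the 5′-most start, CGATA was present in 39.4% and TATCGATA in 7.84%.

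Other core promoter words went the same way by smaller amounts. GGTCACAC was at 9.47% of divergent summits, against 7.27% of single-strand promoter summits, 0.601% of the others and 6.76% of all gene starts, a mean library difference of 2.65 ± 1.03 points, and its control CACGTACG at 0.174%, 0.0956%, 0.0961% and 0.158%. CAGCTG was at 14.4%, against 11.9%, 7.66% and 13.8% (3.41 ± 1.22 points), while its control CTGCAG was at 4.08%, 4.78%, 5.62% and 4.99%. CATCNCTA, the centre of a core promoter element known as Motif 7, was at 9.21%, against 5.93%, 1.30% and 5.14% (3.90 ± 0.748 points). At least 1 of these 3 words or of CGATA was at 755 divergent summits (65.6%), against 50.4% of single-strand promoter summits and 28.4% of the others. Of the divergent windows with TATCGATA, 14 also held GGTCACAC (7.82%), a share near the 9.47% of all divergent windows.

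AT-rich words were more frequent at divergent summits, and so were their controls. TAATTA was at 273 divergent summits (23.7%), against 17.7% of single-strand promoter summits, 17.6% of the others and 9.95% of all gene starts, with 26.2%, 24.2% and 22.8% in replicates 1, 2 and 3 against 18.4%, 16.7% and 17.9%. Its control TAAATT differed by more, with 46.7% against 36.4% and 28.1%, and 28.3% at all gene starts. The library differences between divergent and single-strand promoters averaged 6.71 ± 1.60 points for TAATTA and 11.9 ± 2.37 points for TAAATT. The TATA box word TATAAA was at 40.8%, against 27.9% and 23.6% (29.2% of all gene starts), and its control AATAAT at 44.9%, against 33.1% and 27.9% (24.2%). Median GC content was 33.8% at divergent summits, 37.8% at single-strand promoter summits and 40.8% at the others. In replicates 1, 2 and 3 it was 33.8%, 35.1% and 34.3% at divergent summits, against 38.3%, 39.3% and 37.3% at single-strand ones. The part of this composition in the motif shares was not tested.

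GAGAG and CAGGTA were less frequent at divergent summits. GAGAG was at 150 of them (13.0%), against 23.9% of single-strand promoter summits, 26.6% of the others and 22.5% of all gene starts, and the library differences of -11.9, -12.5 and -8.27 points averaged -10.9 ± 2.29. The control AGGGA was at 17.1%, 18.5% and 23.8%, and 16.5% of gene starts. CAGGTA was at 56 divergent summits (4.87%), against 8.37%, 12.5% and 4.30%, a mean library difference of -3.12 ± 1.18 points, and its control CGAGTA at 3.65%, 5.69%, 4.42% and 5.13% (-2.16 ± 0.419 points). For each of the 9 motifs the difference between divergent and single-strand promoters had the same sign in 3 of 3 libraries with these windows and distances, and for each the exact sign-flip p was 0.25, before and after Benjamini-Hochberg adjustment over the 9. The libraries no longer shared a sign for CAGCTG within 50 bp of the summit (exact sign-flip p = 1), nor for GGTCACAC with starts within 200 bp (exact sign-flip p = 0.75). A match is a word in the window and not a bound site.

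**Figure D4:**
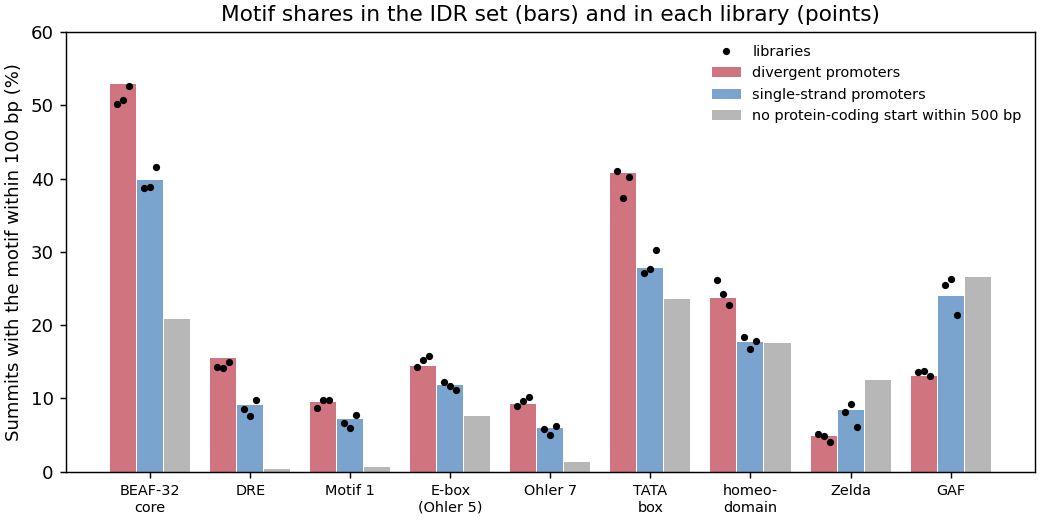
Share of summits with each motif within 100 bp (y axis, percent) at divergent promoters, single-strand promoters and all other IDR summits (bars), with a point per library for both kinds of promoter. The divergent bar is the highest of 3 for CGATA (53.0%) and TATCGATA (15.6%) and the lowest for GAGAG (13.0%) and CAGGTA (4.87%).

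The distance of the closest match was shorter for the words found in more windows, and no control word was placed beside them. The CGATA closest to the summit was a median of 37 bp away, and within 25 bp in 37.0% of the 610 windows that hold it. The closest TATAAA was a median of 38.5 bp away in 470 windows, and within 25 bp in 32.3%. The closest TAATTA was a median of 41.5 bp away in 273 windows, and within 25 bp in 31.5%. GGTCACAC was a median of 53.5 bp away in 109 windows, and CATCNCTA 61 bp in 106. Among less frequent words the order broke, with CAGCTG at a median of 55 bp in 166 windows and GAGAG at 52 bp in 150.

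Sequence differed along the ranks of the divergent summits. When they were divided by signal into 5 groups of 230 or 231, median GC content was 31.3% in the strongest group and 36.6% in the weakest. TAATTA was at 32.0% of the strongest group and 14.8% of the weakest, its control TAAATT at 56.3% and 42.2%, and TATAAA at 53.2% and 32.6%. CGATA ran the other way, with 39.8% in the strongest group and 59.6% in the weakest, and so did GGTCACAC, with 2.16% and 14.8%. In replicates 1, 2 and 3, GGTCACAC was at 2.62%, 5.33% and 2.19% of the strongest group and at 13.2%, 10.3% and 15% of the weakest, and TAATTA at 31.9%, 32.0% and 31.1% of the strongest and 18.4%, 17.4% and 17.6% of the weakest. At single-strand promoters GGTCACAC was at 1.67% of the strongest group, 11.7% of the next to weakest and 6.46% of the weakest, and TATCGATA at 4.53% of the strongest and 10.8% of the weakest. GC content moved with rank beside every one of these shares, and its part in them was not tested.

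**Figure D5:**
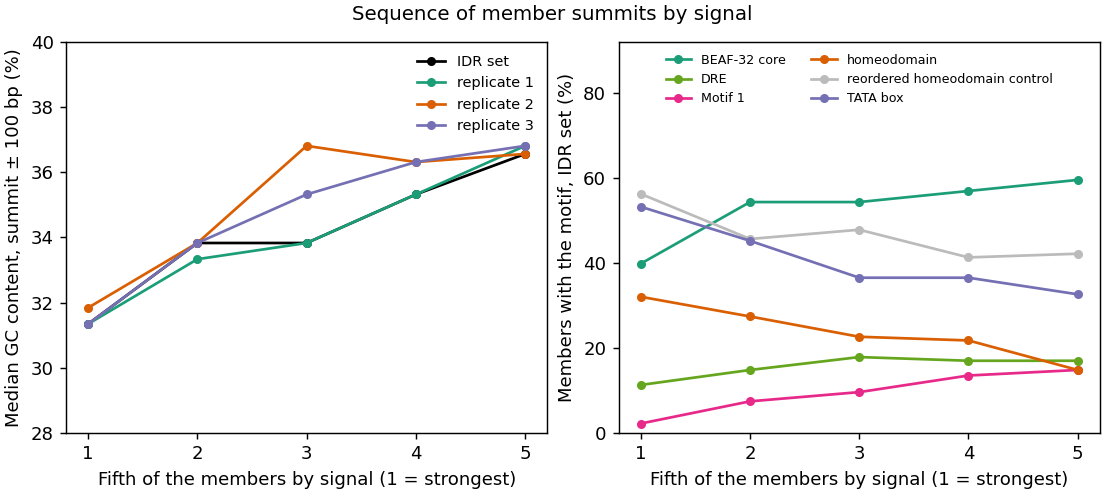
Median GC content within 100 bp of divergent summits by group of signal (5 groups, 1 is the strongest) for the IDR set and each library (left, y axis in percent, not starting at 0), and the share of divergent IDR summits with each of several motifs (right, percent). Median GC content of the IDR set is 31.3% in the strongest group and 36.6% in the weakest, with TAATTA at 32.0% in the strongest and 14.8% in the weakest, and GGTCACAC at 2.16% and 14.8%.

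The genes beside divergent summits were grouped by function. In the annotation 5052 protein-coding genes are in head-to-head pairs, and 2221 of them had a divergent summit within 500 bp of a start, or 44%, which is the background for the lists below. Genes for protein synthesis were first. Of 93 cytosolic ribosomal protein genes 56 are in head-to-head pairs, and 37 of those (66.1%) had a divergent summit, with 63.1% ± 2.06 over the libraries. Of 73 mitochondrial ribosomal protein genes 58 are in such pairs, and 35 (60.3%) had a summit (59.2% ± 1.99). For aminoacyl-tRNA synthetases, which charge tRNAs, it was 16 of 22 (72.7%; 63.6% ± 4.55). For translation initiation factors it was 10 of 21 (47.6%; 49.2% ± 2.75), near the background of 44%. The strongest at cytosolic ribosomal protein genes were *Ripalpha* with *RpL7*, *Nelf-E*, a pausing factor gene, with *RpL14* (rank 471, and 555, 484 and 489 in replicates 1, 2 and 3), and *RpL41* with *NaCP60E*, a sodium channel gene (rank 540). The strongest at tRNA synthetase genes were *Patsas* with *ThrRS* (rank 120, and 92, 124 and 213 in the replicates), *Hem* with *IleRS* (rank 403) and *SerRS* with *CG17260* (rank 773). After *eIF4EHP*, the strongest initiation factor sites were *RpL28* with *eIF1* (rank 878) and *eIF3a* with *CG1074* (rank 1182).

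Genes of energy supply and protein turnover followed. Subunits of oxidative phosphorylation had a divergent summit in 26 of 44 head-to-head genes (59.1%; 60.6% ± 1.31 over the libraries), led by *TppII* with *ND-MWFE* (rank 826), *ND-51* with *CG13994* (rank 884) and *ND-ASHI* with *Fum1*, the fumarase gene (rank 1149). Proteasome subunits had one in 14 of 26 (53.8%; 53.8% ± 6.66), led by *l(2)37Bb* with *Rpn3* (rank 1172), *Hat1* with *Rpn5* (rank 1271) and *Rpn6* with *ave* (rank 1508). The proteasome share, 50% in replicates 1 and 2 and 61.5% in replicate 3, was near the background of 44%.

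In the nucleus, Mediator and TFIID subunits, which link activators to RNA polymerase II, had a divergent summit in 21 of 36 head-to-head genes (58.3%; 56.5% ± 3.21), led by *Taf5* with *Pex6* (rank 413), *elm* with *MED27* (rank 424) and *MED30* with *Rev1* (rank 793). Chromatin genes had one in 21 of 35 (60%; 61.9% ± 6.60), led by *brm*, the ATPase of the SWI/SNF remodeller, with *Arl1* (rank 164, and 201, 367 and 98 in replicates 1, 2 and 3), *E(z)* with *Cnep1r2* (rank 212) and *Ino80*, another remodeller ATPase, with *Aptx* (rank 335). Cell cycle genes had one in 11 of 19 (57.9%; 64.9% ± 3.04), led by *TH1* with *mei-41*, the ATR checkpoint kinase gene (rank 508), *orb* with *Cdc16*, a subunit of the anaphase-promoting complex (rank 1135), and *Fsn* with *Dp*, the E2F partner (rank 1399). Also near the background were spliceosome genes, with 16 of 33 (48.5%; 49.5% ± 3.50), led by *U2af50* with *PIG-Q* (rank 350), *SF2* with *pad* (rank 1161) and *Sf3b6* with *Tnpo* (rank 1254), and replication genes, with 11 of 23 (47.8% in the IDR set and in each library), led by *CG13933* with *PolD2* (rank 934), *Orc4* with *CG12849* (rank 1797) and *bur* with *Mcm10* (rank 3446). An IDR summit of any kind lay within 500 bp of a start at 80.6% of all cytosolic ribosomal protein genes, 70.9% of chromatin genes and 67.5% of cell cycle genes. The lowest share among these functional lists was 39.6%, at proteasome genes, against 29.3% of all protein-coding genes. Whether the shares above are particular to head-to-head genes was not tested. The lists were chosen with results of these data known, and no test was made of any list.

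Genes of the embryonic patterning list were rare at divergent summits, and they are also seldom in head-to-head pairs. Of 98 embryonic patterning genes 9 are in such pairs (9.18%, against 36.2% of all protein-coding genes), and 0 of these 9 had a divergent IDR summit, although 64 of the 98 (65.3%) had an IDR summit within 500 bp of a start, against 4089 of all 13945 protein-coding genes (29.3%). In replicate 1 *put* and *Med*, a receptor and a Smad of the Dpp pathway, had a divergent summit among the strongest 7405, in replicate 3 *put* did, and in replicate 2 none of the 9. The mesoderm gene *twi* has several annotated starts, and its IDR summit was not at the one that lies 40 bp from that of *CG32833*. The patterning list does not hold every developmental gene. *E(spl)mdelta-HLH*, *pll* and *yki*, which are not among its head-to-head genes, each lay beside a divergent IDR summit. Of 14 genes of cellularization and sex determination 3 are in head-to-head pairs and 2 had a divergent summit, *her* with *Trpgamma* (rank 4246, and 4274, 4204 and 4328 in replicates 1, 2 and 3) and *Sry-alpha*, a cellularization gene, with *janA* (rank 4753, and 5744, 6922 and 4219). Among genes used later in life, 1 of 16 head-to-head odorant and gustatory receptor genes had one, the carbon dioxide receptor gene *Gr63a* with *Lamtor4* (rank 6840), and 0 of 12 cuticle protein genes did, in the IDR set or in any library.

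The limit of 500 bp cut through a thin tail of the distances. Just inside it were *RpS6* with *bys* (rank 4187), where the farther start was 499 bp from the summit, and *Abp1* with *Tgi* (rank 4364), where it was 494 bp. Just outside, 2 summits had the farther start at 501 bp, at *sick* with *fs(2)ltoPP43* (rank 2979) and at *alc* with *CG8788* and *CG44286* (rank 3325).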

How the data were processed

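ChIP-seq of Zen fused to GFP was carried out in whole fly embryos in 3 biological replicates of 1 group. Per the file notes, the authors called dm6 peaks library by library, and on the libraries pooled, against control alignments, and deposited them with an IDR set. Aligner and peak caller: not given in the sources used here. The deposited signal value is a score of the authors' caller whose scale differs between lists, so it served only for ranks within a list. The −log10 q-value deposited for each peak was not used. Summits are the deposited start plus the deposited offset (in bp), with ranks counted on the 6 arms.

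Starts came from Ensembl release 115 and sequence from the RefSeq genome of the same assembly, whose arm lengths match dm6. Head-to-head pairs had a minus-strand start at or left of a plus-strand start by at most 1000 bp. A counterpart was a summit within 100 bp in another list. Motifs were searched on both strands in 201 bp, with N for any base, and a TATCGATA match also counts as CGATA. Means ± SD are over 3 libraries. Whether the replicates come from separate embryo collections is not stated beyond the labels, so p-values refer to these libraries only. Where all 3 libraries share a sign, the exact sign-flip p takes its smallest possible value whatever their spread. The SD, and not the p-value, gives that spread. The steps were tested on simulated summits with known answers. Python 3.11.15, numpy 2.4.6 and pandas 2.3.3 were used, and matplotlib 3.10.9 for figures.

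Members, gene lists and motifs were chosen with earlier results of these data known. The text names, by a fixed rule, the 15 strongest divergent summits, the 3 strongest per gene list, the 5 with the largest rank shift in either direction in replicate 3, the 3 near the most genes, those just inside and outside the 500 bp limit, the strongest with none of TAATTA or CAGGTA or CGATA or GAGAG, and the strongest with TATCGATA and with GGTCACAC. Sites with several listed genes and patterning genes were named after their values were seen. Alternatives covered start distances of 200 and 1000 bp, stronger and looser lists, single summits per interval, 5′-most starts, motif windows, other counterpart distances and each library left out.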

Additional observations from a re-analysis of the deposited data

How the results depend on the processing

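The share of IDR summits at divergent promoters depends on its definition. The main value was 15.5%. It was 8.21% with starts within 200 bp, 19.4% within 1000 bp, 16.6% among the upper 0.5 of ranks, 11.7% in a looser list of 2 times as many pooled summits, 15.8% with the strongest summit of each interval, 14.6% with the 5′-most start of each gene, and 16.4% to 17.5% when each library was left out in turn. The lists without replicate 1, 2 or 3 held 4723, 5059 and 5172 summits. Their shares therefore also reflect a smaller list than the IDR set. Counterparts in the strongest library lists averaged 84.9%, with 74.3% within 50 bp, 88.9% within 200 bp and 96.0% in the full lists.

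In the IDR set, and in the lists that replaced it, the occupancy, rank and motif differences kept their direction under the alternatives run. No test was able to pass a threshold. The libraries lost their shared sign in 2 cases, CAGCTG within 50 bp of the summit (exact sign-flip p = 1) and GGTCACAC with starts within 200 bp (exact sign-flip p = 0.75). Occupancy of pairs minus other genes lay between 12.2 points (200 bp) and 31.3 points (looser list) over 9 alternatives. The rank difference lay between -1695 (looser list) and -126.5 (upper 0.5 of ranks) over 11. Ranks run to 14810 in the looser list and to 3702 in the upper 0.5, so these differences are not on 1 scale. In the upper 0.5 the medians lay close together, at 1799.5 for divergent and 1926 for single-strand promoter summits. Each of the 9 motif differences had 12 alternatives, and within 50 bp of the summit CAGCTG differed by 0.0716 points and CATCNCTA by 0.194 points, close to 0. GGTCACAC differed by 0.413 points with starts within 200 bp. No paired analysis was possible because the series holds no second group whose replicates could be paired, and the sign-flip tests pair kinds of summit within each library. Without read counts, depth sets no interval here.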

Other observations

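At least 2 genes of the lists above, on the same or on opposite strands, were near 15 divergent summits (1.30%), and 223 (19.4%) had at least 1 listed gene. The intergenic stretch of *RpL28* and *eIF1* held 2 summits, at ranks 878 and 3812. *Dref*, the gene of the TATCGATA-binding factor, shares its promoter with *RpL13* (rank 2441, and 2623, 1660 and 2808 in replicates 1, 2 and 3, with starts 84 bp apart). *Ibf2* and *Ibf1*, which encode insulator-binding proteins, are divergent to each other (rank 4822, and 5007, 3133 and 6838), as are the replication genes *RPA1* and *Mcm2* (rank 4576, and 7026, 3443 and 4995). *Cdk1*, the mitotic kinase gene, lies beside *mRpS7* (rank 2233, and 2026, 4100 and 2138), and the trithorax group gene *ash1* beside *Taf6* (rank 6493, and 7342, 7474 and 5903).

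Most divergent summits, 1081, were near exactly 2 protein-coding genes, 64 were near 3, 4 near 4 and 1 near 5. The remaining summit, at rank 1042, was near 10 annotated genes, all of them fragments of *mod(mdg4)*, a locus known for joining exons from both strands by trans-splicing, so these are not independent promoters. Near 5 genes was the summit at *NC2alpha*, *PIG-M*, *CG42379*, *CG42380* and *CG42381* (rank 1465), and the next was near 4, at *CG31650*, *CG33995*, *CG44000* and *CG44001* (rank 3930).

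None of the words TAATTA or CAGGTA or CGATA or GAGAG was found in the windows of 330 divergent summits (28.7%). The strongest of these were at *CG11309* with *CG7632* (rank 28, and 41, 47 and 32 in replicates 1, 2 and 3) and *CG13390* with *CG17294* (rank 45, and 73, 70 and 30), each in a window of 29.9% GC.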
